A study of Homo sapiens with 4 samples.

Results

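Glycolysis was followed through 10 of its genes, HK1, HK2, GPI, PFKP, ALDOA, TPI1, PGK1, ENO1, PKM and LDHA, in a human lung and a human colorectal cancer cell line given inhibitors of DNA methylation and histone deacetylation. The genes were picked by name, 1 for nearly each enzyme of the pathway, and all 10 were found among the 43296 gene names of the count table. Of those names, 40877 are of 1 gene and 2419 join several genes. Cells were assayed by droplet single-cell RNA sequencing of transcript 5′ ends (10x Genomics). H1299, a non-small cell lung cancer line, was grown in RPMI 1640 medium, and HCT116, a colorectal cancer line, in McCoy's 5A medium, so line and medium cannot be told apart. Each line was given DMSO, the solvent control, or DAC (decitabine, a DNA methyltransferase inhibitor) at 500 nM for 72 h together with SB939 (pracinostat, a histone deacetylase inhibitor) at 500 nM for 18 h. The latter is called DAC+SB here. Medium with the compounds was replaced every 24 h, and passage numbers lay between 5 and 10.

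Each combination of line and treatment was a single library, so no difference below has a replicate check, no test was made and no p-value was computed. The H1299 libraries held 3578 control (DMSO) and 3726 treated (DAC+SB) cells, those of HCT116 3658 and 4327, and each library between 38927267 and 64524196 counts. The HCT116 DAC+SB library was the shallowest, with a median of 8449 counts per cell against 15784.5 to 17369.5 in the others. Its median mitochondrial share was 18.6%, against 15.8% for its control and 8.33% and 8.87% in control and treated H1299. In all, 131 cell barcodes occurred in 2 or more libraries, which touched 262 of the 15289 cells. The line labels were checked against 10 markers each. The H1299 markers summed to 2934 and 1427 CPM (counts per 1000000 counts of the library) in the H1299 libraries (DMSO first) against 273 and 429 in the HCT116 libraries. VIM made up most of the H1299 sums, with 2282 and 1151 CPM. Of the other H1299 markers, THY1 was lower in treated H1299 (18.8 CPM) than in treated HCT116 (107), as were COL4A2 (0.336 and 2.29) and COL4A1 (0.0481 and 0.283), against the labels. COL4A1 and THY1 were at 0 in H1299 DMSO, COL4A1 and CDH2 at 0 in HCT116 DMSO. The HCT116 markers summed to 108 and 61.3 CPM in the HCT116 libraries against 0.341 and 11.2 in the H1299 libraries, carried mainly by EPCAM and CDX2. Of these markers, LGALS4 (1.60 CPM in treated H1299 and 1.08 in treated HCT116) and TSPAN8 (0.304 and 0.0771) went against the labels beyond counting error, and ESRP1 (2.92 and 2.41) and CDH17 (0.529 and 0.385) within it. CDH17, GPA33 and CEACAM6 were at 0 in HCT116 DMSO, and CDH1, CDH17, GPA33 and CEACAM6 in H1299 DMSO.

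Glycolysis splits glucose into pyruvate in the cytosol and yields ATP and NADH. Hexokinases trap glucose as glucose 6-phosphate, phosphofructokinase makes the committed step, and aldolase cuts the hexose into trioses that the lower enzymes turn into pyruvate. Tumor cells often run the pathway fast and reduce pyruvate to lactate even with oxygen present, and hypoxia-inducible factors (HIF) and MYC are known activators of many of its genes.

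Promoters of 4 members are shown because the assay counts transcript starts and because the HIF and MYC families read short motifs there. Sequences are the 250 bases upstream of the RefSeq start on GRCh38.p14, written 5′ to 3′ along the gene, for GPI (chr19:34364742-34364991, plus strand), PGK1 (chrX:78103998-78104247, plus strand), ENO1 (chr1:8878687-8878936, minus strand) and PKM (chr15:72231191-72231440, minus strand). Capitals mark ACGTG or GCGTG, the core letters of a HIF site, on either strand, so that the reverse complements CACGT and CACGC are also in capitals.
GPI: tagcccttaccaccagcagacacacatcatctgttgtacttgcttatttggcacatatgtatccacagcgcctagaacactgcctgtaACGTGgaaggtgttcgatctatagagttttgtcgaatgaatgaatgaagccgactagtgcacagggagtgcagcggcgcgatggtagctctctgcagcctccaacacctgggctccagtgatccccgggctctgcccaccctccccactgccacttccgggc
PGK1: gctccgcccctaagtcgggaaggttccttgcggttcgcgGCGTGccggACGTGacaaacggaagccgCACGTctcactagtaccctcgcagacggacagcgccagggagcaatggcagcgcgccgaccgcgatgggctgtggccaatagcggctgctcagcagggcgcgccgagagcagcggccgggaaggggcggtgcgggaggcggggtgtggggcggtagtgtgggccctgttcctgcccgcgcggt
ENO1: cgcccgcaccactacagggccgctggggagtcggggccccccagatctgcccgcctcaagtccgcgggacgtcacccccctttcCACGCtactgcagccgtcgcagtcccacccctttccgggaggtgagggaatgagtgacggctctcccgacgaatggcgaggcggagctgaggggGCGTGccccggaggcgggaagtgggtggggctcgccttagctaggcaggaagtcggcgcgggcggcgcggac
PKM: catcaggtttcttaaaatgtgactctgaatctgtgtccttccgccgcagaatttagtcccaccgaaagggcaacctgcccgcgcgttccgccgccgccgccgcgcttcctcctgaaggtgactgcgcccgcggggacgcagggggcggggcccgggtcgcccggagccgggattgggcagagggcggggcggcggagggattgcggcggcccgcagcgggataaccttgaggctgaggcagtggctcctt

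The letters ACGTG or GCGTG were present in 14 of the 24 start windows of the members, against 43.2% of the 35116 windows of all genes in the RefSeq table. PKM had none in its window. The 24 windows are not independent units, since several genes have more than 1, HK1 has 7, and some windows of the same gene overlap. The E-box CACGTG, which contains ACGTG and is the motif of MYC, lay in 3 of the 24 windows, against 6.34% of all. Member windows held a median of 25 CpG dinucleotides, against 11 over all windows. The window of GPI held 10 CpG, that of ENO1 27, that of PKM 28 and that of PGK1 32. These counts describe letters in the reference, and neither binding nor methylation was measured here.

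Summed, the 10 genes took nearly the same share of counts in all 4 libraries. This does not describe the whole pathway, because GAPDH and PGAM1 are not among the 10. GAPDH alone had more counts than the sum in every library, with 6898 and 8378 CPM in H1299 and 4366 and 6049 in HCT116, control first. In H1299 the sum was 2905 CPM (2892 to 2918, exact Poisson 95% interval) in the control and 3060 (3047 to 3074) in the treated library. The HCT116 control had 3268 (3254 to 3282) and its treated library 3104 (3086 to 3121). CPM are counts scaled to the gene and transposable element counts of the library. Intervals cover counting error only and treat counts as independent, so they would be too narrow if the counts are reads rather than molecules. The log2 ratio of DAC+SB over DMSO was thus 0.08 (0.07 to 0.08) in H1299 and -0.07 (-0.08 to -0.06) in HCT116. That level sum held over all features of a gene: over features with a number after the gene name, described below, the log2 ratio of the sum was 0.36 in H1299 and 0.25 in HCT116, and over features without one it was -0.25 and -0.73. With gene counts alone as the denominator the HCT116 value was 0.0037. Over all features, single genes differed in both directions: HK1 and ALDOA were higher with DAC+SB in both lines, and HK2, GPI, PFKP and ENO1 were lower in both. TPI1, PKM, LDHA and PGK1 had opposite signs in H1299 and HCT116, although the counting interval of PGK1 in H1299 covered 0.

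**Figure D1:**
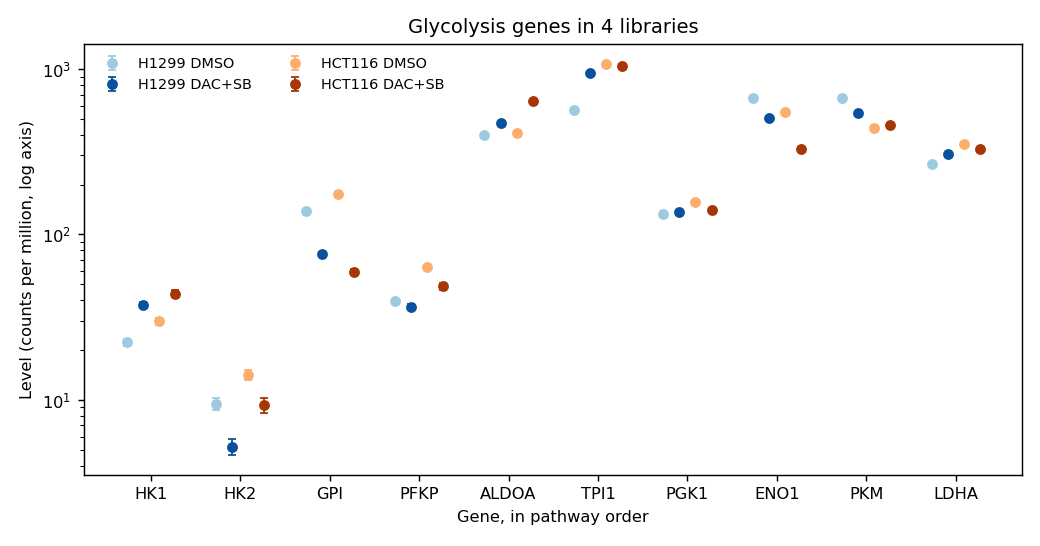
Level of each glycolysis gene (CPM, log axis) in the 4 libraries, in pathway order, with exact Poisson 95% intervals, most of them smaller than the points. GPI was lower with DAC+SB than with DMSO in both lines, and TPI1 was lowest in H1299 DMSO. Levels of different genes are not scaled to length and are not to be compared with each other.

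At a ratio of at least 2 or at most 0.5, over names of 1 gene that reached 100 counts in at least 1 of the libraries compared, none of the 10 genes was past the limit in H1299, where 18.3% of the 14610 genes compared were higher and 7.34% lower. In HCT116 GPI was past it, 1 of 10 lower and 0 higher, where 16.2% of 13539 genes were higher and 20.0% lower. All 10 genes passed the count minimum in every comparison. The median log2 ratio of the members was -0.03 in H1299 and -0.13 in HCT116, beside -0.07 and -0.23 over all genes compared. Among genes that reached 1000 counts, as all members but HK2 did, 6.36% of 7330 were higher and 8.79% lower in H1299. In HCT116 6.16% of 6603 such genes were higher and 23.6% lower. Their median log2 ratios were -0.24 in H1299 and -0.44 in HCT116. At a ratio of 1.5, HK1 and TPI1 were higher and HK2 and GPI lower in H1299 (2 of 10 each way, beside 24.9% and 21.3% of all genes). In HCT116 ALDOA was higher (1 of 10, beside 22.7%) and HK2, GPI and ENO1 lower (3 of 10, beside 35.2%). These shares describe 1 pair of libraries each.

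**Figure D2:**
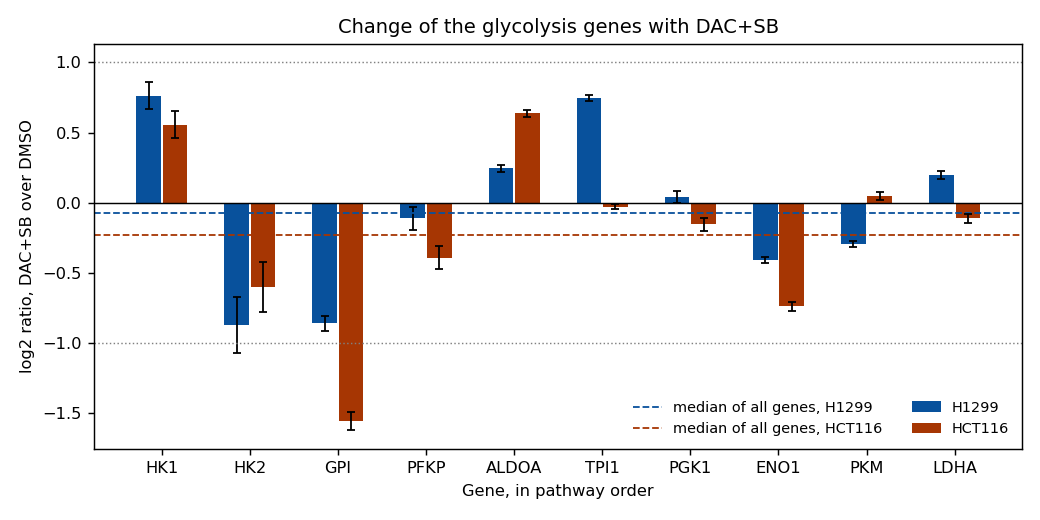
Log2 ratio of DAC+SB over DMSO for each gene in H1299 and HCT116, with exact conditional binomial 95% intervals (counting error only). Dashed lines are the medians of all genes compared, -0.07 and -0.23, and dotted lines the 2-fold limits. The bar of GPI in HCT116 is the one past a limit.

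The hexokinases take the first step, and the 2 isoenzymes among the members differed in direction. HK1, the broadly expressed isoenzyme, stood at 22.2 CPM in control and 37.7 in treated H1299, and at 29.8 and 43.8 in HCT116. Over all features both treated libraries were above both DMSO libraries, with no overlap of counting intervals, whereas over numbered features treated H1299 (8.28 CPM) was below the HCT116 control (12.2). On the log2 scale the ratio was 0.76 (0.67 to 0.86) in H1299 and 0.56 (0.46 to 0.65) in HCT116. HK2, the inducible isoenzyme that many tumors rely on, stood at 9.45 CPM in control and 5.17 in treated H1299, and at 14.1 and 9.30 in HCT116. Each treated library was below its own control, and the H1299 control did not differ from treated HCT116 beyond the intervals. The HK2 log2 ratio was -0.87 (-1.07 to -0.67) in H1299 and -0.60 (-0.78 to -0.42) in HCT116. HK2 had the fewest counts of the 10 genes in every library, from 323 to 883.

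GPI, glucose-6-phosphate isomerase, makes fructose 6-phosphate and showed the lowest ratio of the 10 genes in HCT116. Control H1299 had 138 CPM and treated H1299 75.7, and the HCT116 values were 174 and 59.2. Over all features the 2 controls were the highest and no intervals overlapped, whereas over numbered features treated HCT116 (22.1 CPM) was above the H1299 control (17.8). The level with DAC+SB was 0.340 of that with DMSO in HCT116 (0.324 to 0.355, log2 ratio -1.56) and 0.550 in H1299 (0.531 to 0.570, log2 ratio -0.86). The H1299 log2 ratio minus the HCT116 one was 0.70 (0.62 to 0.78).

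PFKP, the platelet-type subunit of phosphofructokinase, catalyzes the committed step. Its level was 39.4 CPM in control and 36.5 in treated H1299, and 63.6 and 48.5 in the HCT116 pair. Both HCT116 libraries were above both H1299 libraries, and the H1299 pair had overlapping intervals. Treatment log2 ratios were -0.11 (-0.19 to -0.03) in H1299 and -0.39 (-0.47 to -0.31) in HCT116.

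ALDOA, the aldolase that splits fructose 1,6-bisphosphate, was higher with DAC+SB over all features. H1299 had 399 CPM in the control and 473 in the treated library, HCT116 412 and 641, with the 2 treated libraries on top. In log2 terms the ratio was 0.24 (0.22 to 0.27) in H1299 and 0.64 (0.61 to 0.66) in HCT116. Over the unnumbered feature alone ALDOA was lower with treatment, from 34.8 to 32.5 CPM in H1299 and from 28.4 to 20.9 in HCT116. A joined name, ALDOA_CTD-2515O10.6, held a further 11081 and 11090 counts in the H1299 libraries and 13823 and 5782 in those of HCT116, control first. With these counts added the ALDOA log2 ratio was 0.19 in H1299 and 0.32 in HCT116, so the HCT116 value depends on whether they are included. How reads were assigned to joined names was not given in the sources used here.

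TPI1, the isomerase that joins the 2 trioses in a single path, differed most between the lines. It stood at 562 CPM in control and 942 in treated H1299, against 1070 and 1047 in HCT116. Over all features the H1299 control stood apart at the bottom and the HCT116 control was highest. By kind of feature, treated HCT116 was highest over the numbered ones (903 CPM against 845 in its control) and lowest over the unnumbered ones (144 against 190 in the H1299 control). The log2 ratio was 0.75 in H1299 (0.73 to 0.77) and -0.03 in HCT116 (-0.05 to -0.01), and their difference of 0.78 (0.75 to 0.80) was the highest among the members. Without the cells above 25% mitochondrial counts the HCT116 value was 0.01, and it also changed sign with gene counts alone as the denominator and with median-of-ratios scaling.

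PGK1, phosphoglycerate kinase, makes the first ATP of the pathway and varied least of the 10 genes over all features. Control and treated H1299 had 133 and 137 CPM, and HCT116 157 and 141. The highest library was 1.18 times the lowest, but 1.87 times over numbered features, a range wider than those of PKM, ALDOA (1.70) and ENO1 (1.79). The H1299 intervals overlapped with each other, as did those of the 2 treated libraries. The log2 ratio was 0.04 (-0.00 to 0.08) in H1299 and -0.16 (-0.20 to -0.11) in HCT116.

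ENO1, the enolase that makes phosphoenolpyruvate, was lower with DAC+SB in both lines. In H1299 it had 668 CPM in the control and 503 in the treated library, and in HCT116 552 and 330. Each treated library lay below both controls without overlap over all features, whereas over numbered features treated H1299 (242 CPM) was above the HCT116 control (204). Its log2 ratio was -0.41 (-0.43 to -0.39) in H1299 and -0.74 (-0.77 to -0.71) in HCT116.

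PKM, the pyruvate kinase of most tissues and tumors, makes the last ATP, and the count table does not separate its splice forms. Control H1299 stood at 668 CPM, treated H1299 at 545, and the HCT116 libraries at 442 and 456, control first. Both H1299 libraries were above both HCT116 libraries over all features. Over its numbered feature the order was the other way, with 177 and 171 CPM in H1299 and 194 and 257 in HCT116, control first. Treated over control was -0.29 on the log2 scale in H1299 (-0.31 to -0.27) and 0.05 in HCT116 (0.02 to 0.07).

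LDHA, the lactate dehydrogenase subunit that favors lactate formation, takes the step after glycolysis proper. It had 266 CPM in control and 305 in treated H1299, and 354 and 327 in HCT116. Over all features the 4 libraries did not overlap, and the highest was 1.33 times the lowest. Treated HCT116 was highest over numbered features (215 CPM) and lowest over unnumbered ones (113 CPM). The log2 ratio was 0.20 (0.17 to 0.23) in H1299 and -0.11 (-0.14 to -0.08) in HCT116.

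Between the lines, the direction depended on the kind of feature summed. Over all features the log2 ratio of the 10 genes' sum, H1299 over HCT116, was -0.17 under DMSO and -0.020 under DAC+SB. Over numbered features it was -0.47 and -0.36, and over unnumbered features 0.18 and 0.66. GAPDH, outside this sum, gave 0.66 under DMSO and 0.47 under DAC+SB over all features. The gene values that follow are over all features. Under DMSO, 8 of the 10 genes were lower in H1299, and ENO1 (log2 ratio of H1299 over HCT116 0.28) and PKM (0.60) were higher. TPI1 had the lowest ratio, -0.93 (-0.95 to -0.91), followed by PFKP at -0.69 (-0.76 to -0.62). None of the 10 was past the 2-fold limit, where 20.5% of 13796 genes were higher and 15.2% lower in H1299. Under DAC+SB, GPI (0.36), ENO1 (0.61) and PKM (0.26) were higher in H1299, HK2 was lowest at -0.85 (-1.07 to -0.62), and PGK1 at -0.04 (-0.09 to 0.01) did not differ beyond counting error. Again 0 of the 10 were past the limit, where 25.4% of 14875 genes were higher and 12.1% lower. Among genes that reached 1000 counts, 15.4% were higher and 9.76% lower under DMSO, and 23.6% and 7.44% under DAC+SB. At a ratio of 1.5, PKM was higher and PFKP and TPI1 lower in H1299 under DMSO (beside 31.5% and 23.8% of all genes), and ENO1 higher and HK2 lower under DAC+SB (beside 38.6% and 20.1%). The members' median log2 ratio was -0.38 under DMSO and -0.13 under DAC+SB, against 0.11 and 0.29 over all genes. Other scalings set 1 factor per library, so they could not change the gap between these medians. They lowered the medians of all genes and of the members by the same amount. This amount was 0.12 under DMSO and 0.10 under DAC+SB with edgeR's TMM, and 0.18 under DAC+SB with median-of-ratios scaling. Under DMSO TPI1 was then past the 2-fold limit in either scaling (beside 17.0% and 16.3% of all genes lower), and under DAC+SB HK2 was past it with median-of-ratios scaling (beside 15.2%).

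Counts of 9 of the 10 genes were listed under a name alone and under the same name with a number, and these 2 kinds of feature gave different ratios. The sources used here do not say what the number stands for. Features are called numbered and unnumbered, and HK2 had the unnumbered kind alone. Numbered features held between 12.9% (GPI, H1299 DMSO) and 96.7% (ALDOA, HCT116 DAC+SB) of a gene's counts, and every numbered feature of a member was listed in all 4 libraries. In HCT116 the log2 ratio of DAC+SB over DMSO was higher over numbered than over unnumbered features in 9 of 9 genes, as it was in 74.5% of the 6414 genes with at least 100 counts of each kind. In H1299 it was higher in 8 of 9, against 62.9% of 6239 genes, and lower in 1, HK1, against 37.1%. The 2 kinds had opposite signs in 5 of 9 members in HCT116 and in 4 of 9 in H1299, against 27.5% and 27.9% of all such genes. The former were ALDOA, TPI1, PGK1, PKM and LDHA, and the latter PFKP, ALDOA, PGK1 and LDHA. PFKP was level in H1299 over its numbered features (0.0016).

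LDHA shows the size of this gap. Its numbered feature had 114 CPM in control and 164 in treated H1299, and 172 and 215 in HCT116, higher with treatment in both lines. Its unnumbered feature had 152 and 141 CPM in H1299 and 182 and 113 in HCT116, control first, lower with treatment in both lines. The near-level sum of LDHA in HCT116 (log2 ratio -0.11) thus joined 0.32 over the numbered and -0.69 over the unnumbered feature. PGK1 did likewise in HCT116, with 0.31 and -0.63, as did PKM with 0.40 and -0.31, TPI1 with 0.10 and -0.64 and ALDOA with 0.69 and -0.44. For GPI and ENO1 both kinds were lower with DAC+SB in both lines. The GPI log2 ratio was -0.92 over numbered and -1.84 over unnumbered features in HCT116, and -0.16 over numbered features in H1299, where unnumbered GPI went from 120 to 59.8 CPM, a ratio of 0.499, so that GPI was past the 2-fold limit in both lines over unnumbered features (where 9.46% of all genes were lower in H1299 and 25.7% in HCT116) and in neither over numbered ones. The ENO1 values were -0.29 and -1.09 in HCT116 and -0.30 and -0.50 in H1299. For HK1 both kinds were higher in both lines, from 0.50 to 0.82. In TPI1 both were higher in H1299 alone, with 0.89 over numbered and 0.41 over unnumbered features.

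**Figure D3:**
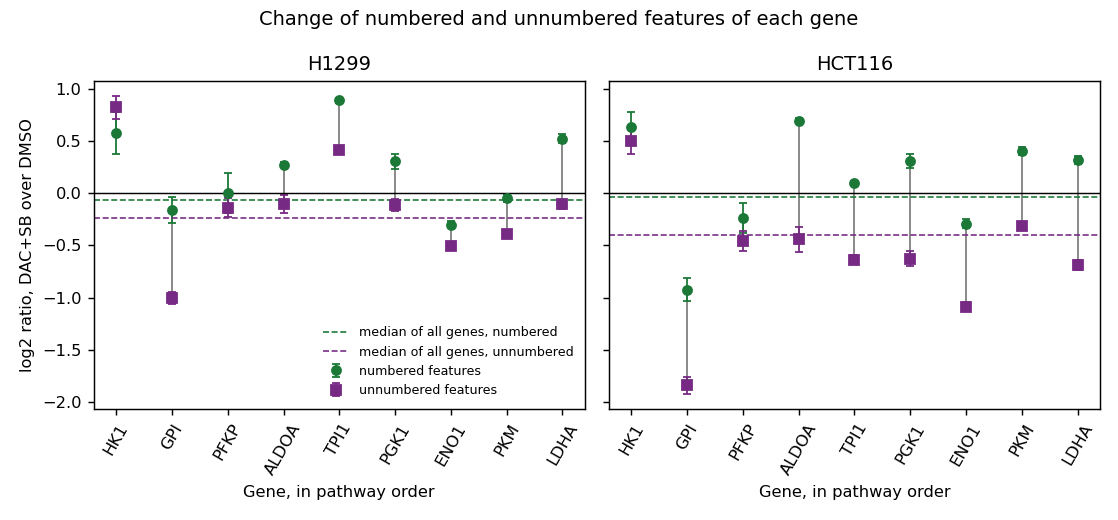
Log2 ratio of DAC+SB over DMSO of numbered features (circles) and unnumbered features (squares) of the 9 genes that have both, with exact conditional binomial 95% intervals. Dashed lines are the medians of each kind over all genes with at least 100 counts of both kinds. In HCT116 every circle lies above its square, and in H1299 all but that of HK1.

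Numbered features took a growing share of all gene counts along the same comparisons. They held 61.9% of gene counts in control and 65.3% in treated H1299, and 68.2% and 73.3% in HCT116. The part of this shift in the members' ratios was not tested. Between the lines the numbered ratio of H1299 over HCT116 was below the unnumbered one in 8 of 9 members under DMSO (84.8% of 5905 genes) and in 9 of 9 under DAC+SB (90.1% of 6062 genes), which left 1 above under DMSO (15.2%) and 0 above under DAC+SB (9.86%). The 2 kinds pointed opposite ways in 2 of the 9 members under DMSO, beside 36.6% of all such genes, and in 7 of the 9 under DAC+SB, beside 39.9%. For those genes the order of the lines depended on the kind of feature. PFKP, lower in H1299, and ENO1, higher in H1299, had 1 sign throughout.

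Enzymes of the pathway outside the 10 genes were taken from a list of 15, of which 10 reached 100 counts in H1299 and 11 in HCT116. In H1299, 2 were higher by the 2-fold limit and 0 lower (beside 18.3% and 7.34% of all genes). In HCT116, 1 was higher and 3 lower (beside 16.2% and 20.0%). In this and the following lists, ALDOC, EPAS1 and MLXIPL in H1299, PGAM2 and SLC2A3 in HCT116 and TXNIP in both lines reached the minimum through the treated library alone, so the counts of higher genes that include them are descriptions. GAPDH, the dehydrogenase between the trioses and PGK1, whose processed copies in the genome can share its reads, stood at 6898 and 8378 CPM in H1299 (DMSO first) and at 4366 and 6049 in HCT116, a log2 ratio of 0.28 and 0.47. In HCT116 its numbered features gave 0.60 and its unnumbered features -0.21. PGAM1, the mutase before enolase, stood at 89.0 and 82.5 CPM in H1299 and at 116 and 47.6 in HCT116, a log2 ratio of -0.11 and -1.29. The other phosphofructokinase subunits were also lower in HCT116, PFKL at -1.73 and PFKM at -1.51, against -0.79 and -0.25 in H1299. LDHB, which favors the reverse reaction to LDHA, stayed near level at -0.16 in H1299 and -0.01 in HCT116.

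Genes of this list above the limit were ALDOC and ENO2 in H1299 and PGAM2 in HCT116, isoenzymes known from particular tissues. ALDOC, the brain aldolase, was higher in H1299 at 2.89, and ENO2, the neuronal enolase, at 1.63, whereas their HCT116 values were 0.59 and -0.12. PGAM2, the muscle mutase, had 7 and 283 counts in HCT116 (6.02, 4.96 to 7.35) and 1 and 82 in H1299, below the count minimum. Over features listed in both libraries the HCT116 log2 ratio of PGAM2 was 3.20, with 40 treated counts. Of 6 testis isoenzymes, 2 reached the minimum in H1299, through the treated library alone, so that they had to come out higher, and 0 reached it in HCT116. LDHC had 4 and 131 counts (5.08, 3.69 to 6.98) and LDHAL6A 1 and 185 (7.58, 5.08 to 12.89). Over features listed in both libraries these ratios were 2.75 and 6.31.

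Sugar and lactate carriers numbered 12, of which 8 reached the minimum in H1299 and 9 in HCT116. In H1299, 2 were higher and 0 lower (beside 18.3% and 7.34% of all genes). In HCT116, 2 were higher and 1 lower (beside 16.2% and 20.0%). SLC2A1, the main glucose carrier GLUT1, stood at 20.3 and 11.8 CPM in H1299 and at 28.6 and 13.6 in HCT116, with log2 ratios of -0.78 (-0.92 to -0.65) and -1.07 (-1.21 to -0.93). SLC2A3, the carrier GLUT3, went the other way, with 13.0 CPM in control and 56.4 in treated H1299 (2.12), and 0.782 and 4.93 in HCT116 (2.66, or 1.45 over features listed in both libraries). SLC2A4, the insulin-responsive carrier of muscle and fat, had 43 counts in control and 122 in treated H1299 (1.55), and 60 and 107 in HCT116 (1.52), and reached the minimum through the treated libraries alone. SLC16A3, a lactate exporter, gave -0.06 in H1299 (-0.14 to 0.01) and 0.53 in HCT116 (0.46 to 0.60). Over features listed in both libraries its H1299 value was -0.31, so the near-level value there depends on features unlisted in the control.

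Genes that steer flux around phosphofructokinase and pyruvate entry were 15, with 13 measured in each line. In H1299, 1 was higher and 0 lower (beside 18.3% and 7.34% of all genes), and in HCT116, 1 was higher and 2 lower (beside 16.2% and 20.0%). TIGAR, a phosphatase that lowers fructose 2,6-bisphosphate and is known as a p53 target, was the one higher in both. It had 30.2 and 66.0 CPM in H1299 (1.13) and 12.9 and 63.3 in HCT116 (2.30). PDP1, which activates pyruvate dehydrogenase, gave 0.95 in H1299 but -1.37 in HCT116, and PFKFB4, a maker of fructose 2,6-bisphosphate, gave 0.43 and -1.09.

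**Figure D4:**
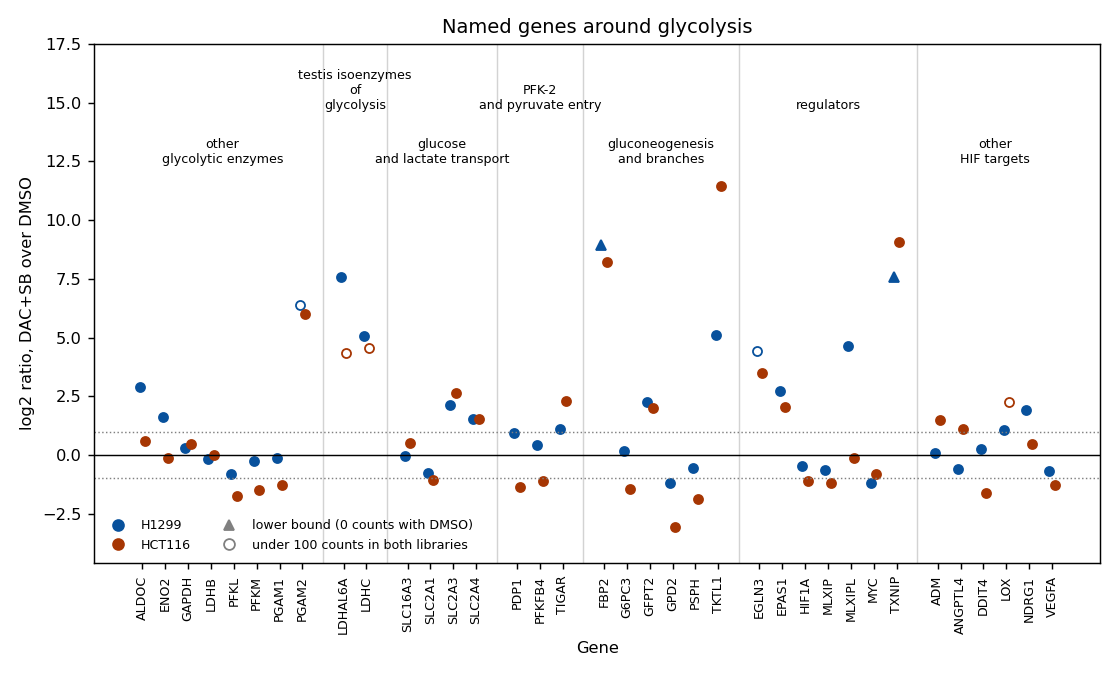
Log2 ratio of DAC+SB over DMSO for the named genes around the 10 glycolysis genes, by list, in H1299 and HCT116. Triangles are lower bounds against 3 counts, open circles have under 100 counts in both libraries, and dotted lines are the 2-fold limits. FBP2, TKTL1 and TXNIP are far above the limit in both lines.

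Regulators of the pathway were measured for 12 of 13 genes in H1299 and 13 in HCT116. In H1299, 3 were higher and 1 lower (beside 18.3% and 7.34% of all genes). In HCT116, 3 were higher and 2 lower (beside 16.2% and 20.0%). MYC stood at 142 and 61.1 CPM in H1299 (-1.21, -1.27 to -1.16) and at 168 and 95.4 in HCT116 (-0.82, -0.87 to -0.76). HIF1A stood at 72.5 and 52.5 CPM in H1299 (-0.46) and at 60.9 and 28.1 in HCT116 (-1.11). EPAS1, which encodes HIF-2 alpha, was higher in both at 2.72 and 2.04, and EGLN3, a prolyl hydroxylase that marks HIF for decay, in HCT116 at 3.48. TXNIP, which restrains glucose uptake, had 0 and 558 counts in H1299, at least 192-fold higher if the control had no counts in unlisted numbered features. In HCT116 it had 1 and 331 counts, a log2 ratio of 9.06 (6.57 to 14.37). Leaving out numbered features not listed in both libraries kept 444 treated TXNIP counts in H1299 and 263 in HCT116. The log2 ratio was then at least 7.26 in H1299, and it was 8.73 in HCT116. MLXIP and MLXIPL encode the related glucose-responsive factors MondoA and ChREBP. MLXIP was at -0.65 and -1.18, and MLXIPL at 4.64 and -0.11.

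Per cell, the sum of the 10 genes differed little between libraries. Cells were thinned to 3300 counts each, which left out 402 HCT116 DAC+SB cells as too shallow and none elsewhere. The median share was 0.303% or 10 counts in the HCT116 control and 0.273% or 9 counts in the other 3 libraries. Without thinning it was 0.275% and 0.284% in control and treated H1299 and 0.302% and 0.287% in HCT116. The variance of the thinned sum over its mean (Fano factor, 1 for pure counting noise) was 1.83 in control and 2.30 in treated H1299, and 2.29 and 2.48 in HCT116. Among members, TPI1 had the highest Fano factor in both treated libraries, 2.12 in H1299 against 1.39 in its control and 2.02 in HCT116 against 1.51.

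**Figure D5:**
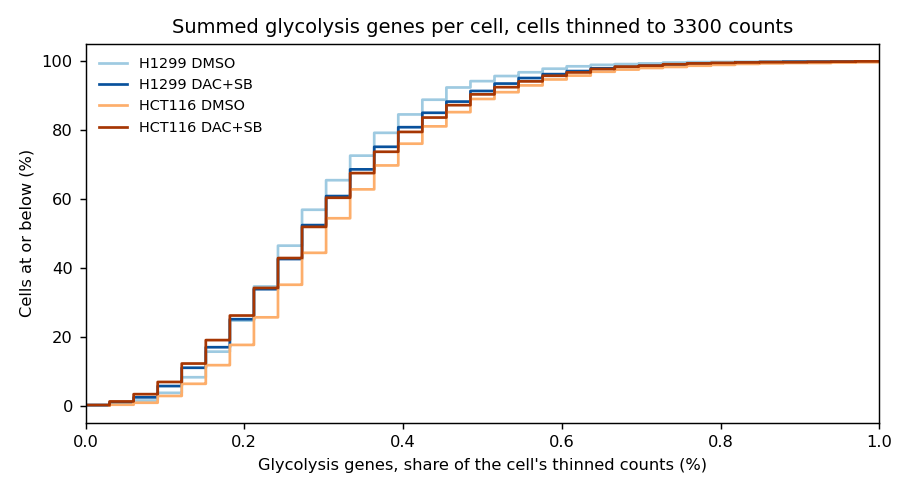
Cumulative share of cells against the summed glycolysis genes as a percentage of the cell's 3300 thinned counts. The HCT116 DMSO curve lies to the right of the others through the middle of the range, where its median is 0.303% and theirs 0.273%.

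Single members were weakly correlated across cells, at low thinned counts. HK2 had a count in 1.53% to 4.24% of the thinned cells of a library, and TPI1 a mean of 1.81 to 3.51 counts. Such low counts hold correlations near 0, so co-expression cannot be judged from these correlations. Over the 45 pairs, Pearson's r of log thinned counts had a median between 0.02 and 0.04 in the 4 libraries and never passed 0.20, the value of ALDOA with TPI1 in HCT116 DAC+SB. The summed members were negatively related to the mitochondrial share of the cell, with r from -0.15 in H1299 DMSO to -0.27 in HCT116 DAC+SB. Thinned counts are drawn from all counts of the cell, mitochondrial ones included, so a larger mitochondrial share leaves fewer draws for the members. A negative r can arise from this alone, and any relation beyond it was not tested. Of 249 other genes with a count in at least 50% of the thinned cells of each library, those most like the summed members by their smallest r over the 4 libraries were HSP90AA1 (0.14), GAPDH (0.14), ACTB (0.13), HNRNPA2B1 (0.13) and NCL (0.12). All cells of a library share its preparation, and these correlations are descriptions.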

How the data were processed

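Cells of H1299 and HCT116 were assayed by 5′ single-cell RNA sequencing, 1 library per line and treatment. The authors deposited whole-number counts per feature and cell for genes and for transposable elements, and the sources used here do not say whether these are counts of molecular identifiers. CASAVA, STAR and the builds GRCh38 and hg38 are named per the submitters' processing notes, without versions. The counting tool, annotation and filter on cells were not given in the sources used here. Numbered features were listed from 10 counts and unnumbered ones from 1 in every library.

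Counts of each gene name were summed per library over features that name 1 gene and divided by gene plus transposable element counts. Every cell was kept, and no doublet caller was run. Reads shared with pseudogene copies may be split: names of processed pseudogenes were listed for ALDOA, PGK1 and LDHA, with at most 14 counts in a library. The use of strand in counting was not stated either. Ratios carry exact conditional binomial 95% intervals, and differences between lines a normal approximation to log counts. A gene at 0 was set to 3 counts for a bound, which holds if no unlisted numbered feature had counts. Sums were compared at a ratio of at least 2 or at most 0.5 among names with at least 100 counts. The ratios and intervals were tested on simulated Poisson counts, which could not show error beyond counting. Correlations use the log of 1 plus thinned counts.

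The members and the lists of other genes were chosen with earlier results of these data known. Named genes are all members, up to 6 genes per list past the limit in either line, GAPDH, PGAM1, LDHB, SLC2A1, SLC16A3, HIF1A, MYC and TXNIP, and the 5 genes most like the members across cells. A further gene of the list of other glycolytic enzymes is not reported here and is left out of its counts. Alternatives changed the denominator, scaling, cell filters, feature sets, count minimum and fold limit, and 3 were added after seeing the data (numbered features alone, unnumbered features alone, and without cells that share a barcode). Promoter windows come from RefSeq on GRCh38.p14. Python 3.11.15, pandas 2.3.3, scipy 1.17.1 and, for TMM factors alone, edgeR 4.0.16 were used.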

Additional observations from a re-analysis of the deposited data

Results flagged for a closer look

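TPI1, PKM, LDHA and the sum of the 10 genes had opposite signs of the treatment ratio in the 2 lines. With 1 library per group the difference was not tested. The log2 ratio of DAC+SB over DMSO was 0.75 in H1299 and -0.030 in HCT116 for TPI1. For PKM it was -0.29 and 0.045, for LDHA 0.20 and -0.11, and for the sum 0.075 and -0.074. Within each kind of feature the signs of LDHA and of the sum did not differ between the lines. Over numbered features LDHA gave 0.52 and 0.32 (H1299 first) and the sum 0.36 and 0.25, and over unnumbered features LDHA was at -0.11 and -0.69 and the sum at -0.25 and -0.73. For TPI1 the opposite signs were found over unnumbered features (0.41 and -0.64) and not over numbered ones (0.89 and 0.10). For PKM they were found over numbered features (-0.05 and 0.40) and not over unnumbered ones (-0.39 and -0.31).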

How the results depend on the processing

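The sum of the 10 genes was compared in 4 ways: treatment in H1299, treatment in HCT116, and H1299 over HCT116 under DMSO and under DAC+SB, always given in this order. As reported the log2 ratios were 0.075, -0.074, -0.17 and -0.020, and H1299 minus HCT116 in treatment ratio was 0.15. Under other choices they were 0.12, 0.0037, -0.17 and -0.058 with gene counts alone as denominator (difference between lines 0.11), and 0.077, -0.067, -0.26 and -0.12 without mitochondrial and ribosomal protein genes in it. TMM scaling gave 0.099, -0.067, -0.29 and -0.12 (difference 0.17), and median-of-ratios scaling 0.045, -0.0093, -0.25 and -0.20 (difference 0.054). Means over cells gave 0.059, -0.11, -0.18 and -0.0094 (difference 0.17). Without the 5% of cells with most counts the values were 0.060, -0.096, -0.18 and -0.023, and without cells above 25% mitochondrial counts 0.075, -0.061, -0.19 and -0.054. Joined names gave 0.073, -0.11, -0.18 and -0.0042 (difference 0.18). Numbered features alone gave 0.36, 0.25, -0.47 and -0.36 (difference 0.11), and unnumbered features alone -0.25, -0.73, 0.18 and 0.66 (difference 0.48). These last 2 choices and the removal of shared barcodes were added after seeing the data. That removal left all 4 values within counting error. Keeping numbered features only where both libraries list them could not move them, because every numbered feature of a member was listed in all 4 libraries. Why numbered and unnumbered features differ was not tested.

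In H1299 0 of 10 members were past the 2-fold limit, and unnumbered features put 1 lower past it (beside 9.46% of all genes). That was GPI, whose counting interval covered the limit. In HCT116 1 was lower, 0 of 9 over numbered features (17.3% of all genes), 2 over unnumbered ones (25.7%) and 0 at a ratio of 4 (3.69%). Between lines under DMSO, 0 became 1 lower with TMM, median-of-ratios or the denominator without mitochondrial and ribosomal protein genes (beside 17.0%, 16.3% and 16.4% of all genes), and 4 of 9 lower over numbered features (beside 33.8%). Under DAC+SB, 0 became 1 lower with median-of-ratios (15.2%) and 2 of 9 lower over numbered features (beside 29.9%). At a ratio of 1.5 the counts were 2 higher and 2 lower, 1 and 3, 1 and 2, and 1 and 1. Over all genes the higher and lower counts as reported were 2673 and 1072, 2192 and 2706, 2833 and 2092, and 3781 and 1802. With no count minimum they were 10771 and 5441, 12255 and 4142, 7943 and 7146, and 7543 and 9851. At 1000 counts they were 466 and 644, 407 and 1557, 1164 and 738, and 1535 and 484. The median share per cell was 0.273%, 0.273%, 0.303% and 0.273% (H1299 control and treated, then HCT116), without thinning 0.275%, 0.284%, 0.302% and 0.287%, and 0.303% in treated HCT116 without cells above 25% mitochondrial counts. Counting error limits HK2 most. No paired analysis was possible because each group is 1 library.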

Other observations

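Gluconeogenesis and the side branches gave 20 measured genes of 23 in each line. H1299 had 4 higher and 1 lower (beside 18.3% and 7.34% of all genes), and HCT116 4 and 7 (beside 16.2% and 20.0%). FBP2 and TKTL1 reached 100 counts through the treated library alone in both lines. FBP2, the muscle fructose-bisphosphatase that reverses the committed step, had 0 counts in control and 1411 in treated H1299, at least 486-fold higher against a floor of 3 counts per library. In HCT116 it had 2 and 374 counts, a log2 ratio of 8.23 (6.37 to 11.28). TKTL1, a transketolase-like gene, was higher in both lines, at 5.10 in H1299 and 11.45 (9.59 to 14.49) in HCT116, or 10.50 over features listed in both libraries. GFPT2, which draws fructose 6-phosphate into hexosamines, was higher at 2.25 in H1299 and had 3.82 and 15.3 CPM in HCT116, control first. GPD2, the mitochondrial glycerol-phosphate dehydrogenase, was lower in both, with 27.1 CPM in control and 11.8 in treated H1299 (-1.20), and 27.0 and 3.26 in HCT116 (-3.05). PSPH, the last enzyme of serine synthesis, was at -0.57 and -1.86, and G6PC3, a glucose-6-phosphatase, at 0.17 and -1.44. Over features listed in both libraries PSPH was at -0.86 in H1299 and -2.11 in HCT116.

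The FBP2 promoter is shown because it holds fewer CpG than the member promoters printed above, 3 in 250 bases upstream (chr9:94593825-94594074, minus strand, GRCh38.p14), with no ACGTG or GCGTG. Low CpG does not set it apart from all member windows, whose counts went down to 0 in a window of HK1.
FBP2: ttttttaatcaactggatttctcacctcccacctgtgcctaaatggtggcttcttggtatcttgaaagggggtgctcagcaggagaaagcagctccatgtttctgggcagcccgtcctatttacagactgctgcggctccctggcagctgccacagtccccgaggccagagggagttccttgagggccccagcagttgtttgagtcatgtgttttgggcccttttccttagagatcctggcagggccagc

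Of 15 other genes known as HIF targets, 14 were measured in H1299 (2 higher, 0 lower, beside 18.3% and 7.34% of all genes). In HCT116 13 were measured (2 higher, 2 lower, beside 16.2% and 20.0%). VEGFA was at -0.70 and -1.28, DDIT4 at 0.26 and -1.64, ADM at 0.10 and 1.49, ANGPTL4 at -0.59 and 1.13, and NDRG1 at 1.91 and 0.45, H1299 first. LOX reached the minimum in H1299 alone, at 1.06, and there LOX and NDRG1 did so through the treated library alone.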
